A study of Mus musculus with 24 samples.

Results

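The liver converts circulating steroids as well as clearing them, and 10 genes of this conversion were followed in isolated mouse hepatocytes: Hsd3b2, Hsd3b3, Hsd3b5, Cyp7b1, Cyp17a1, Akr1d1, Akr1c6, Srd5a1, Hsd11b1 and Hsd17b2. They were taken by gene symbol from the 55421 genes of the deposited count table, and all 10 were among the 13583 genes with enough counts to be tested. The hepatocytes, which carry out most of the liver's metabolism, came from 24 male mice, 6 in each of 4 groups. Young ND mice were C57BL/6N, aged 6 months per the labels, on the normal diet. Young HFD mice were C57BL/6N of the same age on a high-fat diet with 60% of its energy as fat for 9 weeks. Old ND mice were C57BL/6J, aged 24 months per the labels, on the normal diet, and old HFD mice were C57BL/6J of that age on the high-fat diet for 9 weeks. Age and substrain therefore cannot be told apart. The study's own text gives slightly different ages and, for the normal diet, a purified control diet where the labels name a Teklad chow. The labels name no transgene or drug in any group.

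Steroids keep their ring skeleton while enzymes add, remove, oxidise or reduce single groups on it. The 3β-hydroxysteroid dehydrogenase (3β-HSD) family either oxidises 3β-hydroxysteroids, a step of hormone synthesis, or reduces 3-ketosteroids, a step of inactivation. Cytochromes P450 hydroxylate the skeleton, 5α- and 5β-reductases saturate its first ring, and the 11β- and 17β-hydroxysteroid dehydrogenases switch glucocorticoids, androgens and estrogens between active and inactive forms. In rodent liver many of these genes differ between males and females, under the control of the pulses of growth hormone.

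PolyA RNA of each mouse was sequenced, and reads counted on genes totalled 9200332 to 22185069 per mouse. The labels place each mouse in 1 of 2 batches, without saying what a batch shares. Levels are given as CPM, the read count scaled to the library's size, with TMM factors that correct for differences in RNA composition between libraries. Hepatocyte markers held 38993 to 151597 CPM per mouse in sum, with the lowest value in old ND replicate 4, whose macrophage markers reached 917 CPM. The macrophage markers had a median of 18.0 CPM among the young mice on ND and of 70.6 CPM on HFD, and of 76.2 and 78.9 CPM among the old mice on these diets. Old ND replicate 3 (525 CPM) and old HFD replicates 4 (321 CPM) and 6 (474 CPM) were also high in them. With the young groups before the old ones and ND before HFD, the median sums of endothelial markers were 39.8, 84.5, 94.8 and 69.96 CPM, those of stellate and fibroblast markers 22.2, 43.2, 81.5 and 56.7, those of cholangiocyte markers 4.21, 4.80, 7.27 and 8.78, those of T and NK cell markers 0.0822, 0.381, 1.17 and 2.66 and those of B cell markers 0.137, 0.386, 1.65 and 0.794. All these medians were lowest in young ND, and the part of these cells in the results below was not tested. Markers of Leydig and adrenal cortex cells, the classical steroid-producing cells, summed to at most 6.44 CPM in any mouse, and Cyp11a1, which starts steroid synthesis from cholesterol, reached at most 0.159 CPM. Old ND replicate 4 had the lowest level of its group for 8 of the 10 enzymes, young HFD replicate 5 for 6 and young ND replicate 5 for 5. Old HFD replicate 2 was lowest in its group for 4 of them and highest for 2. Old ND replicate 4 and old HFD replicate 2 were also left out together, a choice made after seeing the data. Where this gained or lost a call of an enzyme, or lost a call given for a gene of the lists further on, both values are given. In bulk RNA, fewer hepatocytes and less RNA per hepatocyte cannot be told apart.

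In young ND mice the enzymes covered a wide range of levels, and their order depended on the length used. Per kilobase of all annotated exons of a gene, Akr1c6 was highest, at a median of 509.8 CPM per kilobase, followed by Hsd3b5 (184), Hsd11b1 (131), Cyp7b1 (114), Hsd17b2 (75.2), Akr1d1 (65.5), Srd5a1 (42.4), Hsd3b3 (37.4) and Hsd3b2 (20.3). Cyp17a1 was lowest, at 1.96. Per kilobase of the longest coding transcript, a length chosen after seeing the data, Akr1c6 was again highest (742) and Cyp17a1 again lowest (2.25). Hsd3b3 then had 156 CPM per kilobase and lay above Srd5a1 (46.7), with ranges over the 6 mice that did not overlap, whereas per kilobase of exon Srd5a1 lay above Hsd3b3, also without overlap. Hsd11b1 (343) then lay above Hsd3b5 (184). With either length the ranges kept Akr1c6 above each other enzyme, Akr1d1 above Srd5a1, Srd5a1 above Hsd3b2 and Hsd3b2 above Cyp17a1. Per kilobase of exon, the ranges of Hsd3b5, Hsd11b1, Cyp7b1, Hsd17b2 and Akr1d1 overlapped from each to the next in the order of medians.

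The plot of CPM by mouse shows all 10 enzymes in the 4 groups. Srd5a1 separated young ND from every other group, Hsd3b5 spread widely outside young ND, and Cyp17a1 was high in many but not all HFD mice.

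**Figure D1:**
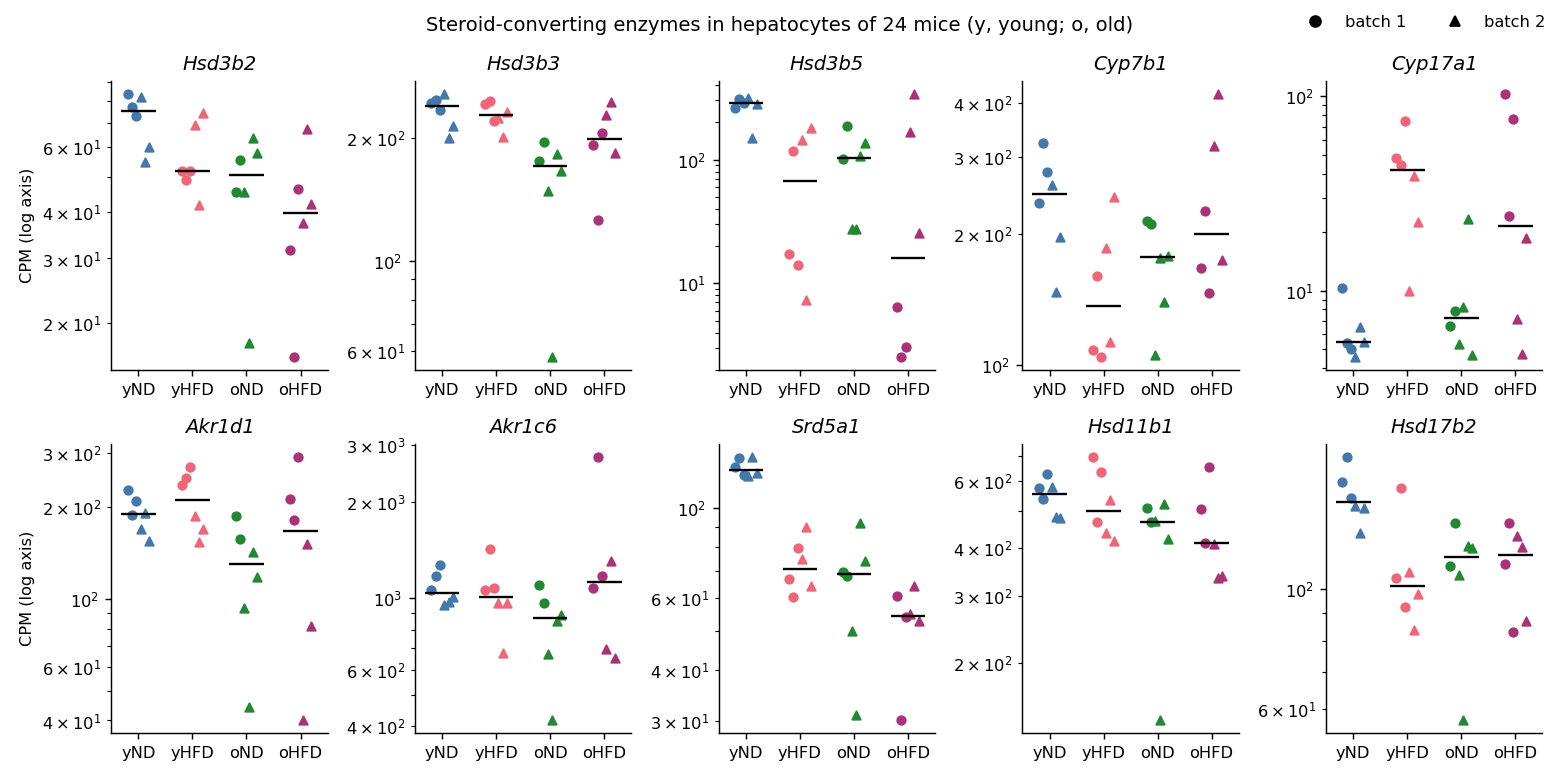
CPM (log axis) of the 10 enzymes in each of 24 mice, by group (yND, young ND; yHFD, young HFD; oND, old ND; oHFD, old HFD), with circles for batch 1, triangles for batch 2 and a bar at the group median. All 6 young ND mice had Srd5a1 between 119.7 and 133.3 CPM, above every mouse of the other groups, and Hsd3b5 ran from 2.54 to 337 CPM in old HFD.

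The 3 members of the 3β-HSD family lie near each other on the minus strand of chromosome 3 (GRCm38, the mm10 build): Hsd3b5 at chr3:98618634-98630252, Hsd3b2 at chr3:98709255-98724543 and Hsd3b3 at chr3:98741523-98763127. Of all 50-base windows of their longest coding transcripts, 25.5% (Hsd3b2), 28.7% (Hsd3b3) and 21.2% (Hsd3b5) occurred exactly in another gene's transcripts. The shares held by another gene named Hsd3b were 12.1%, 28.5% and 18.7%, so much of the sharing of Hsd3b2 was with other genes. How such reads were assigned is not given in the sources used here, so part of the counts of these 3 genes is uncertain. The upstream sequences of Hsd3b3 and Hsd3b5 are shown because these 2 genes are alike there, although the spread between mice was smaller for Hsd3b3 than for Hsd3b5 in every group. Hsd3b3 has a second RefSeq start, whose window, chr3:98762411-98762660, holds almost the same letters as that of the first. Only the window of the first start is printed for Hsd3b3. The 250 bases before the RefSeq start are printed 5′ to 3′ on the gene's strand, with the longest run shared by both, 24 bases, in capitals:
Hsd3b3, chr3:98763129-98763378: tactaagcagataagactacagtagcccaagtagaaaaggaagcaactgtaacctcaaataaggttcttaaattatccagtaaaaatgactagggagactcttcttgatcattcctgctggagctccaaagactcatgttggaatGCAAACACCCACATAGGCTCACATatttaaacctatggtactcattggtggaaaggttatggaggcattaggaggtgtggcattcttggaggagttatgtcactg
Hsd3b5, chr3:98645535-98645784: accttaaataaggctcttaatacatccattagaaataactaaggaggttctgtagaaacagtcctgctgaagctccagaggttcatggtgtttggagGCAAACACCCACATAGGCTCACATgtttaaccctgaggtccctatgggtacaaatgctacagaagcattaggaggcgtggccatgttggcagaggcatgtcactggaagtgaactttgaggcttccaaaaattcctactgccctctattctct
In an alignment of the 2 windows with free ends, 151 of 202 aligned columns were identical (74.8%). On the minus strand the GENCODE position of Hsd3b5 begins at chr3:98630252, and the printed window of Hsd3b5 lies wholly upstream, from chr3:98645535. That window is therefore not the sequence next to the GENCODE start. The STAT5-type motif TTCNNNGAA, read on both strands, was in neither window, and in none of the 8 windows of the 7 enzymes with a RefSeq entry, where 7.02% of 32851 mouse promoter windows held it. No match says only that these letters are not in these windows.

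Hsd3b5, a member of the family that reduces 3-ketosteroids and is typical of adult male mouse liver, showed the widest variation. It ranged from 149 to 314 CPM with a median of 285 in young ND, from 7.27 to 179 with a median of 67.6 in young HFD, from 27.3 to 186 with a median of 103 in old ND and from 2.54 to 337 with a median of 15.9 in old HFD. In young HFD 5 of 6 mice lay below every young ND mouse, and in old ND likewise 5 of 6. The old HFD group held both the 3 lowest mice and the highest mouse of the study.

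The log2 fold change of Hsd3b5 was -1.94 (SE 0.90, edgeR adjusted p = 0.213) for HFD in young mice, -1.50 (SE 0.88, adjusted p = 0.334) for age on ND and -2.08 (SE 0.98, adjusted p = 0.107) for old HFD against young ND, so none passed the threshold of 0.05. For HFD in old mice it was -0.58 (SE 0.95, adjusted p = 0.775). The batches differed: in old HFD all 3 batch 1 mice had 2.54 to 6.47 CPM, and the 3 batch 2 mice had 25.4 to 337. Within batch 1 the HFD change in old mice was -5.19 on the log2 scale, and within batch 2 it was 1.27. With limma on log2(FPKM + 1), the old HFD against young ND change was -3.10 and passed the threshold (adjusted p = 0.00484). That fit had no batch term, and the deposited FPKM had already been adjusted for batch. In young ND, replicate 2 (batch 1) had 307 CPM and an FPKM of 51.6, and replicate 4 (batch 2) had 314 CPM and 19.7. Without old HFD replicate 5, the highest mouse, edgeR gave -3.05 (adjusted p = 0.0181) for old HFD against young ND. Within batch 1 that change was -6.17, which passed when the batch was fitted alone (edgeR adjusted p = 0.00215), and within batch 2 it was -0.48.

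The spread of Hsd3b5 was among the widest of all tested genes in the HFD groups and less so on ND. Among young mice the SD of its log2 CPM was 0.405 on ND and 2.01 on HFD, where the medians over all tested genes were 0.238 and 0.291. Among old mice it was 1.19 on ND and 2.97 on HFD, where those medians were 0.338 and 0.543. The share of tested genes with an SD at or below that of Hsd3b5 was 99.91% in young HFD and 99.98% in old HFD, against 70.5% in young ND and 91.34% in old ND. Genes whose profiles over the 24 mice were most like that of Hsd3b5 were Slc22a28, Slco1a1 and Mup14. Likeness was the root mean square difference of z-scored log2 CPM with batch means removed, 0 for identical profiles, and was 0.362, 0.412 and 0.463 for these genes against a median of 1.42 over all tested genes. Slco1a1 is a male-biased uptake transporter and Mup14 encodes a major urinary protein.

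Hsd3b2, another member of the family, ranged from 54.9 to 83.7 CPM (median 75.1) in young ND, from 42.0 to 74.5 (median 51.8) in young HFD, from 17.7 to 63.6 (median 50.4) in old ND and from 16.2 to 67.2 (median 39.8) in old HFD. Old HFD was lower than young ND by a log2 fold change of -0.86 (SE 0.26, edgeR adjusted p = 0.0165), with 5 of 6 old HFD mice below all young ND mice. The change was -1.34 within batch 1 and -0.42 within batch 2. The steps by diet and by age alone did not pass the threshold, with adjusted p from 0.149 to 0.634.

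Hsd3b3 ranged from 200.3 to 256 CPM (median 239) in young ND, from 200.9 to 247 (median 228) in young HFD, from 58.0 to 195 (median 171) in old ND and from 126 to 245 (median 199) in old HFD. Every old ND mouse lay below every young ND mouse, yet the fold change of -0.59 on the log2 scale (SE 0.19) missed the threshold with edgeR (adjusted p = 0.0609). DESeq2 with the batch gave an adjusted p of 0.041, and leaving out old ND replicate 4 and old HFD replicate 2 gave -0.41 with 0.0165. HFD in young mice gave -0.03, with a 95% interval from -0.43 to 0.36.

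Cyp7b1, the oxysterol 7α-hydroxylase, which also hydroxylates dehydroepiandrosterone and is higher in male than in female mouse liver, ranged from 148 to 324 CPM (median 247) in young ND, from 105 to 243 (median 137) in young HFD, from 106 to 215 (median 177) in old ND and from 147 to 419 (median 200) in old HFD. All neighbouring groups in the order of medians overlapped. The log2 fold change for HFD was -0.67 (SE 0.26, adjusted p = 0.139) in young and 0.50 (SE 0.26, adjusted p = 0.264) in old mice, neither past the threshold with edgeR. The change in young mice was -1.16 within batch 1, which passed when that batch was fitted alone (adjusted p = 0.0332), and -0.13 within batch 2. The change in old mice was -0.29 within batch 1 and 1.04 within batch 2. The difference between the 2 diet responses, tested as an interaction, was 1.16 (SE 0.37), with an unadjusted p of 0.0041 and an adjusted p of 0.531. It was 0.87 within batch 1 and 1.17 within batch 2. Age on HFD gave 0.66 (SE 0.26, adjusted p = 0.154). Adh6-ps1, Selenbp2 and Mup16 had the profiles most like that of Cyp7b1, with differences of 0.556, 0.59 and 0.635.

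Cyp17a1 encodes the 17α-hydroxylase and 17,20-lyase that makes androgen precursors in the gonads. Its level was low in young ND, with 76 to 217 reads per mouse, and rose with HFD in young mice. It ranged from 4.55 to 10.3 CPM (median 5.41) in young ND, from 9.96 to 74.9 (median 41.7) in young HFD, from 4.65 to 23.3 (median 7.23) in old ND and from 4.72 to 102.7 (median 21.4) in old HFD. In young HFD 5 of 6 mice lay above every young ND mouse. The log2 fold change was 2.54 (SE 0.53, edgeR adjusted p = 0.0112), with 2.999 in batch 1 and 2.14 in batch 2. Old HFD against young ND gave 2.31 (SE 0.55, adjusted p = 0.0038), with 3.26 in batch 1 and 0.90 in batch 2.

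For HFD in old mice the change of Cyp17a1 was 1.45 (SE 0.56) and did not pass the threshold (adjusted p = 0.133). Within batch 1 it was 3.19 and within batch 2 it was -0.0031. Old ND replicate 5, at 23.3 CPM, lay above the 4.65 to 8.25 CPM of the other old ND mice, and without it the change was 2.07 and was called (adjusted p = 0.0317). The diet responses of young and old mice differed by -1.08 (SE 0.74, edgeR interaction, adjusted p = 0.659). Apoa4, an apolipoprotein of lipid transport, had the profile nearest to Cyp17a1, at 0.549, followed by Slc16a5 at 0.562 and 1810053B23Rik at 0.568.

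Srd5a1, the 5α-reductase that turns testosterone into dihydrotestosterone and starts the inactivation of other 3-ketosteroids, was lower than in young ND in each of the other 3 groups. It ranged from 119.7 to 133.3 CPM (median 123) in young ND, from 60.4 to 89.6 (median 71.0) in young HFD, from 31.1 to 91.6 (median 68.9) in old ND and from 30.3 to 64.2 (median 54.4) in old HFD. No mouse of the other groups reached the young ND range, which was also narrow, with an SD of log2 CPM of 0.069. The fold change of HFD in young mice was -0.79 on the log2 scale (SE 0.19, edgeR adjusted p = 0.0221). Age on ND gave -0.98 (SE 0.19, adjusted p = 0.00362), and old HFD against young ND gave -1.25 (SE 0.19, adjusted p = 0.000129).

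The fold changes of Srd5a1 were negative in both batches, at -0.87 and -0.68 for HFD in young mice and at -0.85 and -1.02 for age on ND, but with a batch fitted alone none of these 4 passed the threshold (edgeR adjusted p = 0.101, 0.591, 0.215 and 0.205). Without young ND replicate 2, young HFD replicate 1 or young HFD replicate 6, the diet change in young mice missed the threshold, with adjusted p of 0.0576, 0.0658 and 0.0564. Once mice were old or on HFD, the second factor gave smaller values that did not pass: -0.27 (SE 0.19, adjusted p = 0.409) for HFD in old mice and -0.46 (SE 0.19, adjusted p = 0.163) for age on HFD. The difference between the diet responses was 0.51 (SE 0.26, adjusted p = 0.554). Of the 50-base windows of the Srd5a1 transcript, 16.5% also occurred in the gene Gm17108.

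Akr1d1, the 5β-reductase, which acts on steroid hormones and on bile acid precursors, ranged from 155 to 228 CPM (median 190) in young ND, from 154 to 271 (median 211) in young HFD, from 44.1 to 187 (median 130) in old ND and from 40.2 to 292 (median 167) in old HFD. No comparison of Akr1d1 passed the threshold, with adjusted p from 0.194 to 0.97. Age on ND gave -0.56 (SE 0.26) and HFD in young mice 0.11, with a 95% interval from -0.42 to 0.64. Acad11, Maob and Bbox1, 3 enzymes of fatty acid oxidation, amine oxidation and carnitine synthesis, had profiles close to that of Akr1d1, at differences of 0.239, 0.26 and 0.268.

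Akr1c6, an aldo-keto reductase that reduces androstenedione to testosterone, had the highest median of the 10 enzymes in every group, per kilobase of exon and of the longest coding transcript alike. It ranged from 952 to 1272 CPM (median 1036) in young ND, from 675 to 1426 (median 1014) in young HFD, from 419 to 1101 (median 867) in old ND and from 652 to 2762 (median 1126) in old HFD. The highest value was that of old HFD replicate 2. HFD in old mice gave a log2 fold change of 0.52 (SE 0.23, adjusted p = 0.180), and HFD in young mice gave -0.08, with a 95% interval from -0.54 to 0.38. The electron carrier gene Cyb5a had the profile nearest to Akr1c6, at 0.328.

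Hsd11b1, the 11β-HSD that regenerates active corticosterone in the liver, ranged from 479.8 to 627 CPM (median 557) in young ND, from 418 to 695 (median 502) in young HFD, from 142 to 523 (median 469.5) in old ND and from 335 to 654 (median 412) in old HFD. No comparison passed the threshold, and the fold changes ran from -0.33 to 0.05 on the log2 scale. For HFD the 95% interval was from -0.47 to 0.36 in young mice and from -0.42 to 0.41 in old mice. Serpinf1, Ces1f and Mettl7a1 had the profiles nearest to Hsd11b1.

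Hsd17b2, the 17β-HSD that oxidises testosterone and estradiol to less active ketones, ranged from 127 to 175 CPM (median 145) in young ND, from 83.9 to 154 (median 101) in young HFD, from 57.2 to 132 (median 115) in old ND and from 83.0 to 132 (median 115) in old HFD. In young HFD 5 of 6 mice lay below every young ND mouse. The change with HFD in young mice was -0.48 (SE 0.16, adjusted p = 0.0917). It passed only without old ND replicate 4 and old HFD replicate 2 together (-0.44, adjusted p = 0.0308), without young HFD replicate 2 (-0.59, adjusted p = 0.0459) or with the mice of the 2 young groups alone (-0.45, adjusted p = 0.0164). Old HFD against young ND gave -0.43 (SE 0.16) and lay just inside the threshold (edgeR adjusted p = 0.0494), and this call was lost in 18 of 24 refits that left out 1 mouse. For HFD in old mice the value was 0.01, with a 95% interval from -0.33 to 0.35.

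Over the 10 enzymes, HFD in young mice changed 2 with edgeR, Cyp17a1 upward and Srd5a1 downward, where 3.5% of all tested genes were called. In that comparison 8 of 10 log2 fold changes were negative, with a median of -0.22 against 0.01 over all tested genes. Srd5a1 was the 1 enzyme whose groups did not overlap, where 4.83% of tested genes did not overlap. Age on ND called 1 of 10, Srd5a1, lower, where 8.5% of tested genes were called and 1.24% were called lower. There 9 of 10 fold changes were negative, with a median of -0.53 against 0.01, and Srd5a1 and Hsd3b3 did not overlap between groups, against 3.8% of tested genes. Hand-written lists described further on also had negative medians there, among them bile acid synthesis (-0.36), other steroid-converting enzymes (-0.29) and redox partners (-0.18). Receptors and carriers had a median of 0.07 and female-biased genes of 3.22.

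Old HFD against young ND called 4 of 10 enzymes, where 30.2% of tested genes were called. The 3 lower were Srd5a1, Hsd3b2 and Hsd17b2, with 12.9% of tested genes lower, and the 1 higher was Cyp17a1, with 17.3% of tested genes higher. Srd5a1 alone did not overlap, against 7.26% of tested genes. HFD in old mice called 0 enzymes with edgeR, where 3.01% of tested genes were called, and 2 of 10 enzymes had an unadjusted p under 0.05, as did 22% of tested genes. DESeq2 called 0 with the batch in the model and 1, Cyp17a1, without it, among 893 genes called in all. Age on HFD called 0 with edgeR and with DESeq2, where 2.24% of tested genes were called, and 2 of 10 had an unadjusted p under 0.05, as did 21% of tested genes. The interaction of age and diet called 0 enzymes and 0% of tested genes with edgeR, and 2 of 10 enzymes, Cyp7b1 and Hsd17b2, had an unadjusted p under 0.05, as did 9.18% of tested genes. DESeq2 also called 0 enzymes there.

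These comparisons share groups, so their values stand side by side and are not independent of each other. The plot of fold changes gives each of them with its interval.

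**Figure D2:**
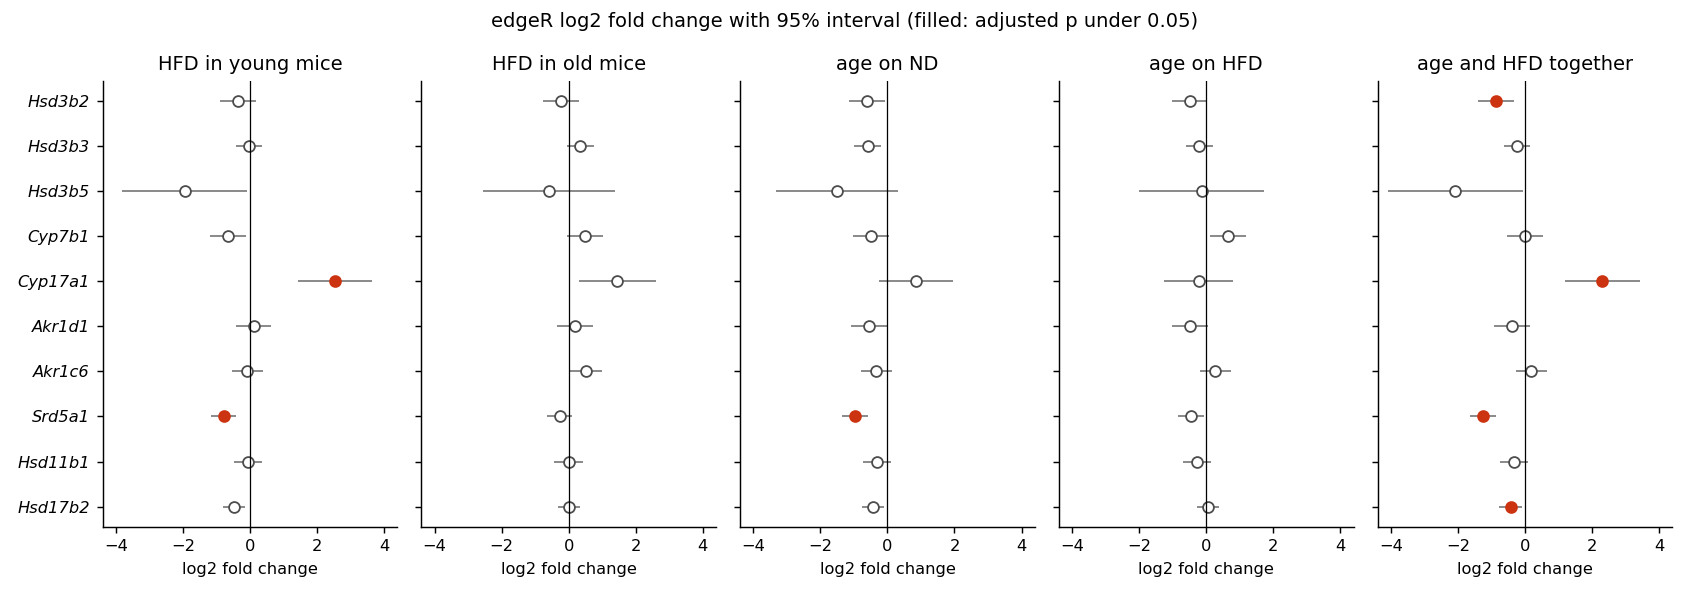
Log2 fold change (x axis) of the 10 enzymes in 5 comparisons, from edgeR with all 24 mice, with 95% intervals and filled points where the adjusted p was under 0.05. Srd5a1 was filled in 3 panels at -0.79, -0.98 and -1.25, Cyp17a1 in 2 panels at 2.54 and 2.31, and the intervals of Hsd3b5 were the widest.

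Hsd3b5, Cyp7b1 and Cyp17a1 can be read mouse by mouse, beside Cyp2b9, a P450 typical of female mouse liver. In young HFD replicates 1 to 6, Hsd3b5 was at 17.4, 118, 13.99, 144, 7.27 and 179 CPM. Cyp7b1 in the same order was at 109, 160, 105, 186, 113 and 243 CPM, and Cyp17a1 was at 48.2, 44.4, 74.9, 9.96, 39.0 and 22.6 CPM. The 3 mice lowest in Hsd3b5 in this group were also the 3 lowest in Cyp7b1.

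In old HFD replicates 1 to 6, Hsd3b5 was at 6.47, 2.54, 3.06, 167, 337 and 25.4 CPM, and Cyp17a1 was at 102.7, 24.2, 76.3, 7.11, 4.72 and 18.6 CPM. Cyp7b1 was at 168, 226, 147, 318, 419 and 174 CPM, so that replicate 2, the lowest in Hsd3b5, had the third highest Cyp7b1 of the group. In old ND, replicate 4 was lowest in Hsd3b5 (27.3 CPM) with Cyp7b1 at 176 CPM. In old HFD the first 3 mice are batch 1 and the last 3 batch 2, and these batches did not overlap in Hsd3b5 or Cyp17a1. Cyp2b9 was at 0.0473 to 0.802 CPM in young ND, 10.2 to 156 in young HFD, 2.21 to 19.1 in old ND and 19.96 to 149 in old HFD. The rank of mice in these genes was not tested.

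**Figure D3:**
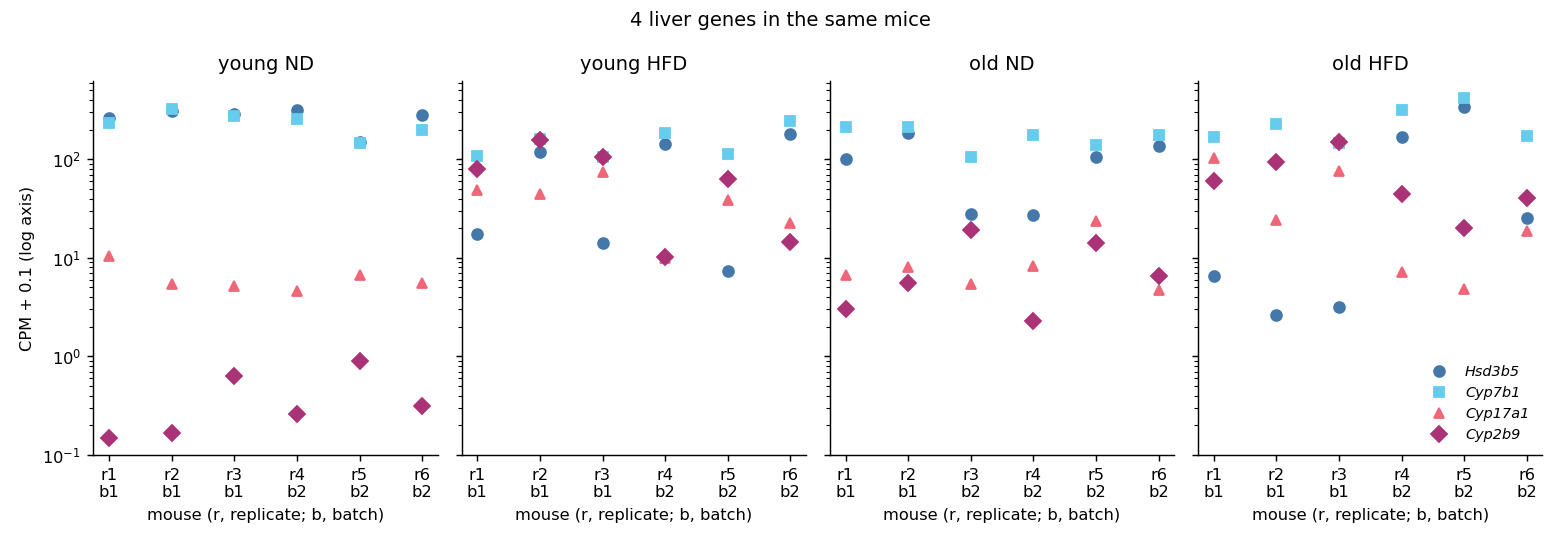
CPM + 0.1 (log axis) of Hsd3b5, Cyp7b1, Cyp17a1 and Cyp2b9 in each mouse (x axis, replicate and batch) of the 4 groups. In old HFD the 3 batch 1 mice had Hsd3b5 at 2.54 to 6.47 CPM and Cyp17a1 at 24.2 to 102.7 CPM, whereas young ND mice had Hsd3b5 at 149 to 314 CPM and Cyp17a1 at 4.55 to 10.3 CPM.

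Among the 10 enzymes themselves, the most alike profiles over the 24 mice were those of Hsd3b2 and Srd5a1 (0.613), Hsd3b2 and Hsd3b3 (0.626), Hsd3b3 and Hsd11b1 (0.671) and Hsd3b2 and Hsd3b5 (0.758). These values share libraries and, for Hsd3b2 and Hsd3b3, sequence. Abca8a had the profile nearest to both Hsd3b2 (0.433) and Srd5a1 (0.469), Ces3a that nearest to Hsd3b3 (0.412) and Bri3bp that nearest to Hsd17b2 (0.549).

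The other steroid-converting enzymes of a hand-written list gave few calls. Of 32 listed, 18 were tested, and Hsd3b4, Cyp11b2 and Cyp19a1, the aromatase gene, had no read in any mouse. HFD lowered 1 of 18 in young mice, Dhrs9, a short-chain dehydrogenase, at -1.33 (SE 0.38, edgeR adjusted p = 0.0494), against 1.59% of tested genes lower. In old mice HFD lowered Dhrs9 at -1.35 (adjusted p = 0.0487), against 1.64% of tested genes, and raised Hsd17b11 at 0.63 (adjusted p = 0.0237), against 1.37%. Old HFD against young ND lowered Akr1c19 (-1.10) and Akr1c14 (-0.68), aldo-keto reductases of the same family as Akr1c6, which is 2 of 18 against 12.9% of tested genes lower. Without old ND replicate 4 and old HFD replicate 2, Dhrs9 missed the threshold for HFD in old mice (-1.44, edgeR adjusted p = 0.0673), where 2.61% of tested genes were called. The number called was then 4 of 18 for HFD in young mice, where 10.6% of tested genes were called, 1 of 18 for age on ND, where 6.08% were, and 5 of 18 for old HFD against young ND, where 30.2% were.

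Of 7 tested receptors and carriers of steroids, Serpina6, which encodes corticosteroid-binding globulin, rose with HFD in young mice by a log2 fold change of 0.87 (SE 0.20, edgeR adjusted p = 0.0195), from 193 to 359 CPM in the mean, against 1.91% of tested genes higher. Old HFD against young ND gave 0.66 for Serpina6 (SE 0.20, adjusted p = 0.0152). Of 15 glucocorticoid-responsive genes, HFD in old mice changed 1, Tsc22d3, at 1.15 (adjusted p = 0.0159), against 3.01% of tested genes. Age on ND changed 1, the gluconeogenic G6pc, at -1.01 (adjusted p = 0.0311), against 8.5%, and old HFD against young ND changed 1, Tat, which degrades tyrosine, at -0.78 (adjusted p = 0.0179), against 30.2%. Without the same 2 mice G6pc missed the threshold (-0.84, edgeR adjusted p = 0.0547), and the number called was 1 of 15 for HFD in young mice, against 10.6% of tested genes, and 3 of 15 for old HFD against young ND, against 30.2%.

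Male-biased liver genes moved in more cases. With HFD in young mice 8 of 15 tested were lower and 0 higher, with a median log2 fold change of -1.35, against 1.59% of tested genes lower. Examples were Cspg5 (-3.44), Ugt2b38 (-2.49) and Mup20 (-0.93). Age on ND lowered 6 of 15, among them Ugt2b38 (-2.38) and Elovl3 (-1.58), with a median of -0.80, against 1.24% of tested genes lower. HFD in old mice lowered 2 of 15, Cspg5 (-2.48) and Gstp1 (-1.05), with a median of 0.06, against 1.64% of tested genes lower. Without the same 2 mice, age on ND called 2 of 15, against 6.08% of tested genes, with Elovl3 no longer called (-1.44, edgeR adjusted p = 0.0685), and HFD in old mice called 1, against 2.61%, with Cspg5 no longer called (-2.10, adjusted p = 0.0658), while the 8 calls for HFD in young mice were kept, against 10.6%. None of the 10 enzymes stood on this list.

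Female-biased liver genes were mostly too low to test, with 6 of 16 tested. HFD in young mice raised 4 of these 6, where 1.91% of tested genes were higher, including Cyp2b9 at 7.67 and Cyp2a4 at 3.92 on the log2 scale, and age on ND raised 3, where 7.26% of tested genes were higher. HFD in old mice raised 1, Cyp2b9, at 2.54, where 1.37% of tested genes were higher. Cyp2b13 had no read in any young ND mouse, so no fold is given for it.

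**Figure D4:**
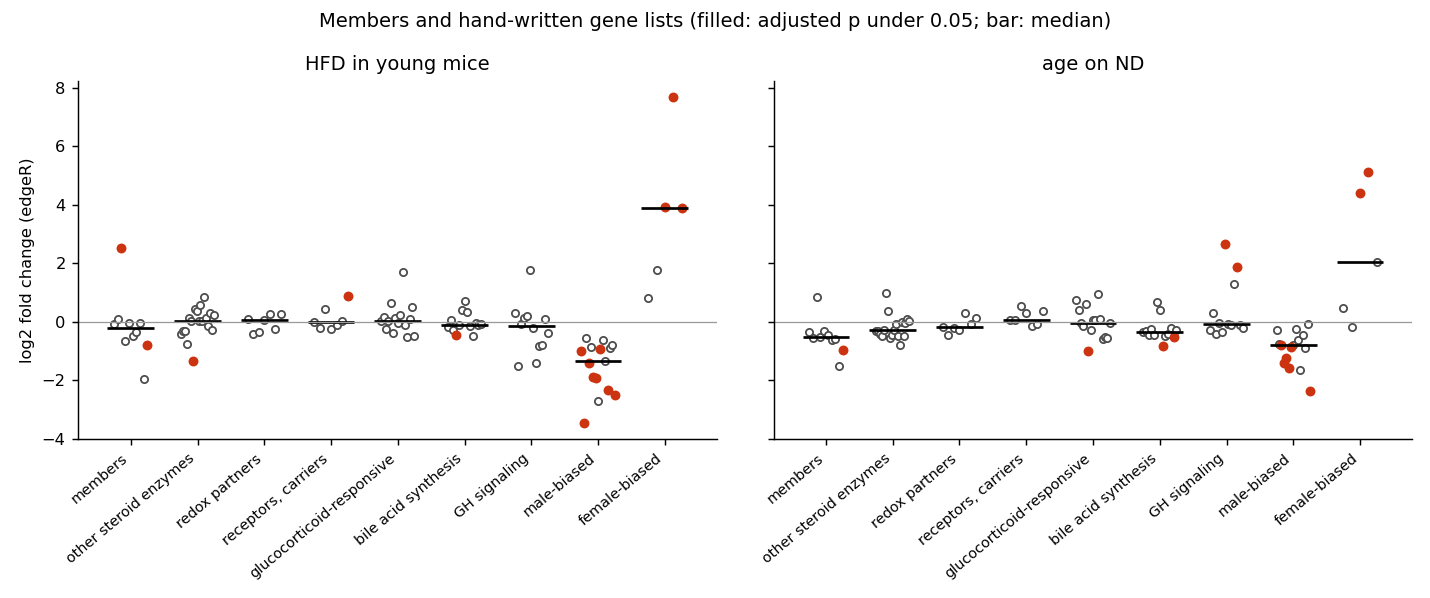
Log2 fold change (y axis, edgeR) of the 10 enzymes and of 8 hand-written gene lists for HFD in young mice and for age on ND, with filled points where the adjusted p was under 0.05 and a bar at the median. Cyp2b13 is left out of the female-biased list. The 10 enzymes had medians of -0.22 and -0.53, between those of the male-biased list (-1.35 and -0.80) and of all tested genes (0.01 and 0.01). Medians were -0.10 and -0.36 for bile acid synthesis, 0.04 and -0.29 for other steroid-converting enzymes and 0.06 and -0.18 for redox partners.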

How the data were processed

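Hepatocyte RNA-seq of 24 mice was grouped by the age, diet, replicate and batch in the sample labels. The deposited counts are whole reads per gene that the authors obtained from 2-pass STAR (2.7.3a) alignment to mm10 with Gencode, SAMtools filtering and HTSeq (0.11.2). They also deposited FPKM values, from CuffLinks with a ComBat adjustment of the batches, which only the table's own name mentions. Over 6815 genes those FPKM values followed gene span, introns included (median implied length over span 0.95, over exon length 3.39), so levels of different genes were compared as CPM per kilobase of merged exons (GENCODE M21) in place of the planned FPKM. Strand handling is not given in the sources used here.

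Counts were tested with edgeR 4.0.16 in R 4.3.3: TMM, filterByExpr by group, a single fit of the 24 mice to group plus batch, quasi-likelihood F tests, and Benjamini-Hochberg adjustment over 13583 genes at 0.05. Intervals are 95%. The tests were tried on simulated data first. Log2 CPM for spread, likeness and outliers was computed from the same normalization. Total counts of 9200332 to 22185069 per mouse set the precision, and reads without molecular identifiers make counting error a lower limit. No label says more than that each sample is a separate replicate, so p-values measure the spread between these samples.

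The members and lists were chosen with earlier results of these data known. All 10 members are named, up to 2 highest and 2 lowest called genes per list and comparison, and up to 3 genes most like each member. A called gene of the receptor list is not reported here. Alternatives were DESeq2 1.42.0 (batch kept or dropped), edgeR with group alone, RLE or total-count scaling, omission of the count filter, fits of the compared groups only, a minimum log2 fold change of 1, limma 3.58.1 on log2(FPKM + 1) or log2(FPKM + 0.1), each batch alone, a replicate block and leaving out each mouse. Leaving out old ND replicate 4 and old HFD replicate 2 together, also for the lists, and the length of the longest coding transcript were chosen after seeing the data. Promoter sequences are from RefSeq (GRCm38.p6), which matched 7 of 10 members, and figures used matplotlib 3.10.9.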

Additional observations from a re-analysis of the deposited data

Results flagged for a closer look

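In 7 of 40 sets of 6 mice, 10 enzymes in 4 groups, 1 mouse lay apart from the other 5, with a gap to the nearest that passed Dixon's 95% criterion. Chance marks about 1 in 20 such sets. Of the 7, 4 fell on old ND replicate 4, the lowest of its group on the log2 CPM scale for Hsd3b2 (4.16, others 5.51 to 5.99), Hsd3b3 (5.86, others 7.21 to 7.61), Hsd11b1 (7.15, others 8.73 to 9.03) and Hsd17b2 (5.84, others 6.73 to 7.05). Its hepatocyte markers summed to 38993 CPM and its macrophage markers to 917 CPM. In young ND, Hsd3b5 was lowest in replicate 5 at 7.22 (others 8.03 to 8.29). In old ND, Cyp17a1 was highest in replicate 5 at 4.55 (others 2.26 to 3.07). In old HFD, Srd5a1 was lowest in replicate 2 at 4.93 (others 5.72 to 6.01).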

How the results depend on the processing

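The number of enzymes called was 2 for HFD in young mice, 0 for HFD in old mice, 1 for age on ND, 0 for age on HFD, 4 for old HFD against young ND and 0 for the interaction. Without the count filter these became 4, 2, 7, 4, 5 and 3, with 32336 genes in the fit and an infinite prior df in place of a median of 5.33. Of those genes 1473, 1108, 2053 and 1235 were called in the first 4 comparisons and 587 for the interaction. DESeq2 called 2 for age on ND with batch, among 1768 genes called in all, and 2 without batch, among 1399. For HFD in old mice it called 1 without batch, among 893. Only the mice of the groups compared gave 2 for age on ND, among 1331. An added log2 fold change of 1 gave 1 for HFD in young mice, 0 for age on ND and 2 for old HFD against young ND. Over all genes it called 272, 900 and 1736 in these comparisons. Batch 1 alone gave 1 for HFD in old mice (Hsd3b5 at -5.19, adjusted p = 0.0474), among 15 genes called in all, and 0 for age on ND, among 93. Batch 2 alone gave 0 for HFD in young mice, age on ND and old HFD against young ND, among 9, 2 and 617. A batch alone holds 2 to 4 mice per group. Leaving out 1 mouse gave 1 to 3, 0 to 1, 1 to 2, 0 to 0, 3 to 4 and 0 to 0, and leaving out old ND replicate 4 and old HFD replicate 2 together gave 2 for age on ND. Among the calls that changed and are not described above were Hsd3b5 for age on ND, gained with the compared groups only (-1.41, adjusted p = 0.0377), and Hsd17b2 for old HFD against young ND, lost with DESeq2, RLE, total counts, edgeR without batch, the compared groups only, limma and each batch alone. Over all tested genes, calls under the alternatives other than leaving out mice ran from 9 to 2302 for HFD in young mice (475 as given), 15 to 1108 for HFD in old mice (409), 2 to 2053 for age on ND (1155), 0 to 1235 for age on HFD (304), 617 to 5013 for old HFD against young ND (4100) and 0 to 587 for the interaction (0). Leaving out 1 mouse gave 146 to 998, 84 to 823, 586 to 1592, 40 to 813, 3314 to 4722 and 0 to 1 in the same order, and 11, 6, 3, 16 and 0 of the 24 mice moved the first 5 counts by over 1.5 times, so the shares of tested genes called depend on single mice, except for old HFD against young ND. Without old ND replicate 4 and old HFD replicate 2, 13679 genes were tested and 1453, 357, 832, 200, 4128 and 0 were called. Of 2330 refits of the 60 fold changes, none reversed a called value, 44 lost a call, 36 gained one and 121 changed the sign of a value that was not called. The cause of each change was not tested. Groups share replicate numbers, which belong to different mice. The deviations of same-numbered mice had r from -0.32 to 0.551 over 36 pairs (mean 0.182, 21 over 0.1), against a mean of -0.037 for other pairs, and within batches the mean was 0.001. Not every pair passed 0.1, so the numbers were not taken as pairing, and a model with the replicate block called 2, 0, 1, 0, 4 and 0. At young ND levels of 76 to 217 reads, Cyp17a1 has the largest counting error of the enzymes.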

Other observations

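Redox partners of the P450s and dehydrogenases were called in 1 comparison with all mice. In old HFD against young ND, 3 of 7 were lower, the electron carrier genes Cyb5b (log2 fold change -0.80, edgeR adjusted p = 0.000716) and Cyb5r3 (-0.53) and H6pd (-0.60), which makes the NADPH used by the 11β-HSD enzyme, and 1 was higher, Fdxr (0.54), against 30.2% of all tested genes called. Of 12 growth hormone signaling genes, age on ND raised 2, Igfbp3 (2.67) and Socs3 (1.86), where 7.26% of tested genes were higher, and HFD in old mice lowered 1, Socs3 (-1.79, edgeR adjusted p = 0.0396), where 1.64% were lower. Socs3 had a mean of 35.3 CPM in old ND (SD 45.2, n = 6), and without old ND replicate 4 and old HFD replicate 2 neither of its changes passed (0.97, edgeR adjusted p = 0.128, and -0.88, adjusted p = 0.227). Old HFD against young ND lowered Stat5b (-0.58) and Stat5a (-0.46) and raised Igfbp3 (2.18) and Igf1 (0.41), 4 of 12 where 30.2% of tested genes were called. Of 13 bile acid synthesis genes, HFD in young mice lowered 1, Cyp27a1 (-0.44), where 1.59% of tested genes were lower. Cyp27a1 starts the alternative pathway that Cyp7b1 continues. Age on ND lowered 2 of 13, Cyp8b1 (-0.82), which sets the cholic acid share, and Scp2 (-0.54), where 1.24% were lower. Without the same 2 mice the calls of Scp2 for age on ND (-0.45, edgeR adjusted p = 0.0894) and of Stat5a for old HFD against young ND (-0.35, adjusted p = 0.103) were lost, and Cyb5b was called lower for HFD in young mice (-0.38, adjusted p = 0.0441).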
